A study of Homo sapiens with 4 samples.

Results

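The members are 10 genes of the SR family of splicing factors, SRSF1 to SRSF7, SRSF11, TRA2A and TRA2B, taken by gene symbol from a table of transcripts. They account for 21 of the 44578 listed transcripts and for 10 of 23217 gene symbols. They were chosen by symbol and not by a measured value, although earlier results of these data were known at the time. The table comes from LV-M100, a single clonal subline of the MDA-MB-231 breast cancer line, in which the U5 small nuclear ribonucleoprotein component SNRNP40 was depleted with siRNA. Of the 4 libraries, 2 came from cells given a control siRNA, either NC1 or the BLOCK-iT Fluorescent Oligo, and 2 from cells given siSNRNP40 #1 or siSNRNP40 #2. All cells received siRNA by lipid transfection, and RNA was taken 48 h later. The depletion is transient, and each condition is a mix of 2 different oligonucleotides.

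SR proteins join an RNA-binding domain to a tail rich in arginine and serine. They sit on exonic enhancers, recruit the early spliceosome to nearby splice sites, and several of them also accompany mRNA out of the nucleus. Their genes are a textbook case of negative feedback. When the protein is plentiful, many of them splice an extra exon into their own transcript, or keep an intron, with a premature stop. That transcript is then handed to nonsense-mediated decay. Such an extra exon is called a poison exon. The balance between full-length and premature-stop transcripts therefore helps to set how much SR protein is made.

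The premature stops are shown here because this feedback is the reason for reading the SR genes by transcript as well as by gene. In GENCODE release 44 on GRCh37, whose coordinates are those of hg19, 7 of the 10 genes have a decay transcript whose stop codon lies in an internal exon that the canonical transcript lacks. The same search found such an exon in 17.5% of the 10028 coding genes whose mean FPKM in the table was 1 or more. For SRSF1, SRSF2 and SRSF5 it found none, although each has at least 1 annotated decay transcript. The search passed over decay transcripts whose reading frame has an incomplete start, or whose stop codon is not annotated or is split by an intron. It also left out any exon that overlaps an exon of the canonical transcript, even in part. In these 3 genes the kind of decay transcript was not examined further. In 3 of the 7, SRSF3, SRSF7 and SRSF11, the search found 2 such exons. The one in most decay transcripts is shown, or, where each is in a single one, that of the transcript named first. The 7 sequences that follow are the last bases of the shown exon read along the gene up to its premature stop, which is in capitals. Each runs over 30 bases, except that of SRSF7, where the exon begins 28 bases before the end of the stop.

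SRSF3 poison exon, chr6:36567602-36567631, plus strand: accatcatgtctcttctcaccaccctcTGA
SRSF4 poison exon, chr1:29492521-29492550, minus strand: ggagaggttcggttcttacaaggaaaaTGA
SRSF6 poison exon, chr20:42087915-42087944, plus strand: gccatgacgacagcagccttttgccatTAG
SRSF7 poison exon, chr2:38976461-38976488, minus strand: gtttcttcgtttgagtcagtcgcctTGA
SRSF11 poison exon, chr1:70697562-70697591, plus strand: gttgttcataaaacagcttttgaaagtTGA
TRA2A poison exon, chr7:23561908-23561937, minus strand: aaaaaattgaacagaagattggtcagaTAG
TRA2B poison exon, chr3:185649560-185649589, minus strand: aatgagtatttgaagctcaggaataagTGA

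The whole exons shown were 456 bases long in SRSF3, 449 in SRSF7, 301 in TRA2A, 276 in TRA2B, 268 in SRSF6, 175 in SRSF4 and 117 in SRSF11. Of the exons not shown, that of SRSF3 has 98 bases and lies apart from the shown one, with its stop after 95 codons, and that of SRSF11 has 62 bases and also lies apart, with its stop after 131. The other exon of SRSF7 is a shorter form of the shown one, with 276 of its bases and a stop after 51 codons. For the stops shown, the reading frame ended after 38 codons in TRA2B and 59 in TRA2A, and after 124 to 160 codons in the other 5. The full-length proteins are much longer in most cases, with 288 residues for TRA2B, 282 for TRA2A, 494 for SRSF4 and 484 for SRSF11. The shortest is SRSF3 with 164 residues, and its premature stop shown is also the one nearest to the normal end. The tails that define the family are plain in the canonical proteins, which hold between 25 (SRSF3) and 113 (SRSF4) arginine-serine or serine-arginine pairs. Between 26.9% (SRSF11) and 45.7% (SRSF2) of residues are arginine or serine.

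The deposited values are FPKM, fragments scaled by transcript length and by mapped fragments, with the 2 libraries of a condition pooled into 1 value. No value has a replicate error, depth is unknown, and nothing in these results was tested statistically. Fold changes are depleted over control cells, with nothing added to the values. Transcripts or genes were counted where their FPKM averaged 1 or more, and a change was called when the absolute log2 fold change exceeded 1. The target itself, SNRNP40, had an FPKM of 40.4 in control cells and 6.12 in depleted cells, and total FPKM differed by 0.0031 on the log2 scale. Among genes looked up as markers of the line, VIM was at 750.1 and 733.0 and CD44 at 115.9 and 141.3 in the same order. ERBB2 was at 6.56 and 7.42, whereas ESR1 and CDH1 stayed below 0.1, and the leukocyte gene PTPRC was listed at 0. As in any bulk sample, a lower level in every cell cannot be told apart from fewer cells with a high level.

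The SR genes differed little between control and SNRNP40-depleted cells. None of the 10 was called at the level of gene sums, where 1.47% of all 12334 genes were called. Of the 10, 8 had a lower FPKM after depletion and 2 a higher one, where 49.5% of all genes were lower. The median log2 fold change was -0.082 over the 10 genes and 0.0034 over all genes. The median absolute log2 fold change was 0.090 over the 10 genes, against 0.170 over all genes. Scatter is smaller at high expression, and for the 4559 genes within the SR range of mean FPKM, 15.3 to 168.4, the median was -0.019 and the median absolute value 0.138. In that range 54.0% of genes were lower and 0.329% were called.

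**Figure D1:**
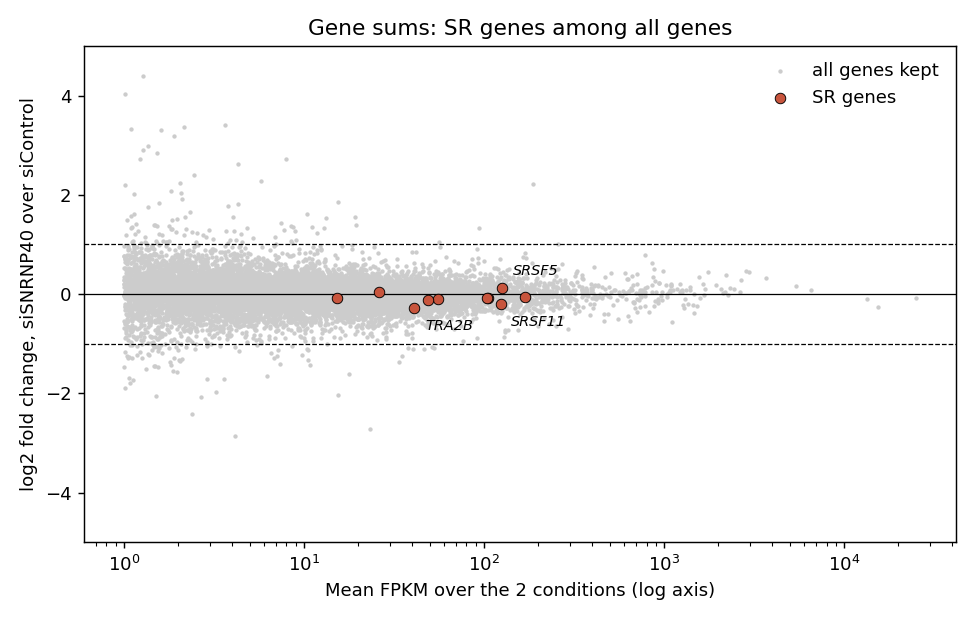
Log2 fold change of the summed FPKM of each gene (siSNRNP40 over siControl) against mean FPKM on a log axis, for the 12334 genes kept (grey) and the 10 SR genes (red). Dashed lines mark an absolute log2 fold change of 1, and the SR genes lie between -0.29 (TRA2B) and 0.12 (SRSF5).

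Summed over their transcripts, the 10 genes came to an FPKM of 835.0 in control cells and 792.3 in depleted cells, a log2 fold change of -0.076. FPKM corrects for transcript length, so levels can be set beside each other. SRSF3, which encodes the smallest SR protein, had the highest FPKM in both conditions, and TRA2A the lowest, with mean levels that differed 11.0-fold. The order of the 10 genes was the same in both conditions except that SRSF11 and SRSF5 exchanged the second and the third place. Whether neighbours in this order differ beyond replicate spread is unknown, because the spread is not in the table. SRSF3, SRSF5, SRSF11, SRSF1 and SRSF6 ranked from percentile 93.9 to 96.7 of the genes kept in mean FPKM, and TRA2A at percentile 59.7.

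**Figure D2:**
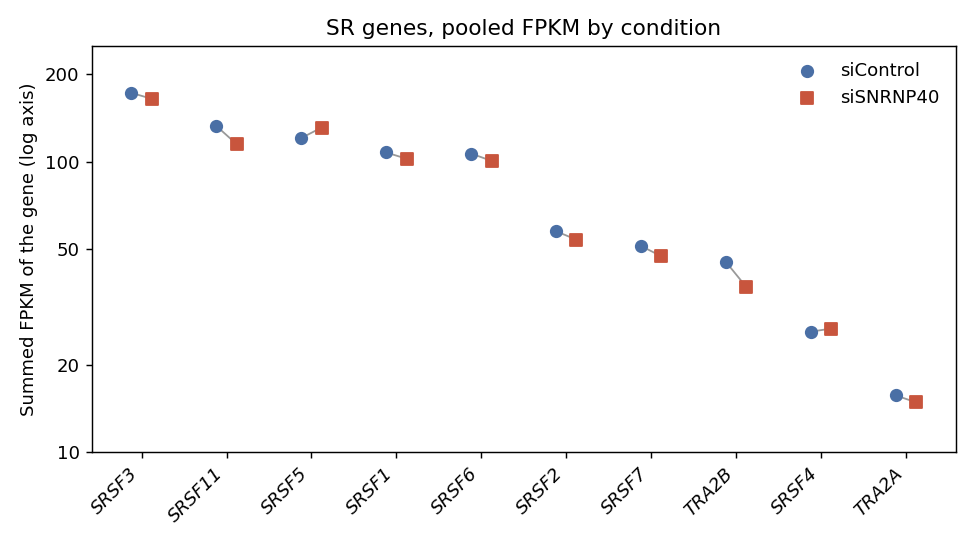
Summed FPKM of each SR gene on a log axis with control siRNA (blue circles) and SNRNP40 siRNA (red squares), in order of the control level. Each point is 1 pooled value without an error, and the widest gap on this axis is that of TRA2B, at 45.1 and 37.0.

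The TRA2 pair bind purine-rich enhancers and act with SR proteins, although they were named after a fly sex-determination factor. TRA2B had the largest difference of the family, at 45.1 FPKM in control cells and 37.0 in depleted cells (log2 fold change -0.29, a value 18.0% lower). TRA2A, its paralogue, had 15.7 and 14.8 (-0.080). TRA2B has 2 listed transcripts, and the main one was lower, at 43.9 and 36.6 (-0.26). The minor one had an FPKM of 1.25 and 0.402 (-1.64), which was the only absolute log2 fold change above 1 among all 21 transcripts. Its mean FPKM of 0.828 kept it below the limit for counting, and it carried 2.78% of the TRA2B signal in control cells and 1.09% in depleted cells. TRA2A is listed as a single transcript.

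SRSF11, also known as p54, is the most distant relative of the classical SR proteins and binds the U2AF factor that marks the 3′ splice site. It was the other gene with a difference near that of TRA2B, at 132.6 FPKM in control cells and 114.7 in depleted cells (log2 fold change -0.21, a value 13.5% lower). Most of this difference lay in 1 of its 2 transcripts. The first listed transcript had 69.6 and 53.8 (-0.37), and the second 62.9 and 60.9 (-0.046). The first held 52.5% of the gene in control cells and 46.9% in depleted cells. The transcript with the highest FPKM was therefore a different one in the 2 conditions, which happened in 1 of the 8 SR genes with several transcripts and in 14.8% of 5282 such genes in the table. Both transcripts of SRSF11 stood near equal shares, so a shift of 5.65 percentage points was enough.

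SRSF1, SRSF3 and SRSF7 shuttle between nucleus and cytoplasm and serve as adaptors for mRNA export. SRSF1, the founding SR protein and a known oncoprotein, had a summed FPKM of 107.5 in control cells and 102.2 in depleted cells (-0.072). It has 4 listed transcripts. The third, with 83.2% and 82.1% of the gene, had an FPKM of 89.4 and 84.0, the second had 14.9 and 15.2, the first 2.86 and 2.76, and the fourth 0.320 and 0.348. No SRSF1 transcript moved its share by more than 1.04 percentage points. SRSF3 had a summed FPKM of 172.3 and 164.4 (-0.068), and its 2 transcripts kept shares of 65.6% and 65.1% for the first and 34.4% and 34.9% for the second. SRSF3 thus carried a large second transcript in both conditions, at an FPKM of 59.3 and 57.4, and its balance moved least of all SR genes, by 0.517 percentage points.

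SRSF7, which recognises RNA with a zinc knuckle beside its RNA-binding domain, had a summed FPKM of 51.2 in control cells and 47.2 in depleted cells (-0.12). Its main transcript had 47.8 and 45.1 (-0.084). The minor one had 3.41 and 2.08 (-0.71), the largest absolute log2 fold change among the 19 SR transcripts above the expression limit. Because it is scarce, the share of this transcript differed only from 6.65% to 4.41%.

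SRSF4, SRSF5 and SRSF6 are close relatives that carry a second, degenerate RNA-binding domain. They did not lean one way. SRSF5 had the highest positive value, at 120.5 FPKM in control cells and 131.0 in depleted cells (0.12), and SRSF4 had 26.0 and 26.6 (0.036). SRSF6 had 106.6 and 100.5 (-0.084). Their joint FPKM differed by 0.029 on the log2 scale. In SRSF5 the difference lay in the main transcript, at 109.1 and 119.9 (0.14), while the minor one was at 11.4 and 11.0. In SRSF6 more of the difference lay in the minor transcript, at 16.5 and 13.0 (-0.34), than in the main one, at 90.1 and 87.5 (-0.042). SRSF4 is listed as a single transcript. A row labelled LOC100289511 shares the SRSF5 locus, with an FPKM of 1.51 and 2.76, and its part in the SRSF5 values was not tested.

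SRSF2, also called SC35, marks nuclear speckles and largely stays in the nucleus. Its summed FPKM was 57.6 in control cells and 53.9 in depleted cells (-0.096), yet its 3 transcripts differed in direction. The first had 20.5 and 15.6 (-0.39), the second 22.4 and 20.6 (-0.12), and the third 14.6 and 17.6 (0.27). The third thereby went from 25.3% to 32.7% of the gene, a shift of 7.35 percentage points, and the first from 35.7% to 29.1%. This was the largest redistribution in the family. SRSF2 shares its locus in the table with MFSD11, a gene on the other strand that overlaps 30.1% of the exon bases of the canonical SRSF2 transcript, and with the microRNA gene MIR636. MFSD11 summed to an FPKM of 8.72 and 10.4, and MIR636 was listed at 0.724 and 3.40. With the MIR636 row added, the log2 fold change of SRSF2 was -0.026. MIR636 had an FPKM below 1 in control cells, so this sum is not read as a correction of the SRSF2 value. Whether strand was used when fragments were assigned is not given in the sources used here, so reads of SRSF2 and MFSD11 cannot be told apart with certainty.

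**Figure D3:**
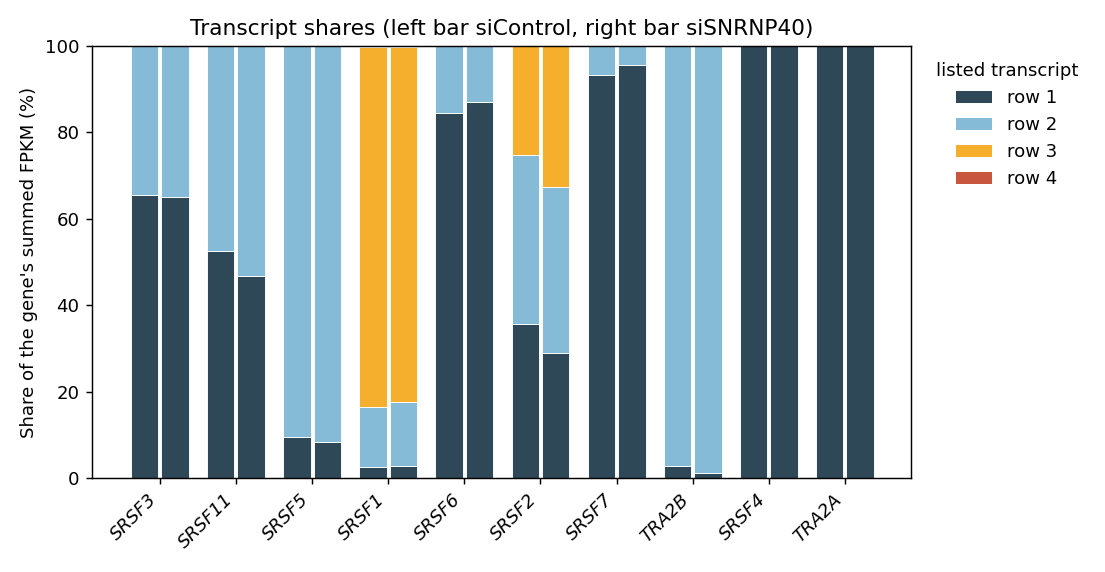
Share of each gene's summed FPKM in each listed transcript, in percent, with control siRNA (left bar) and SNRNP40 siRNA (right bar). SRSF2 and SRSF11 are the only genes whose bars differ by over 5 percentage points, and the fourth SRSF1 transcript, at 0.340% or less, is too small to be seen.

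Read by transcript, the differences were also small. Of the 21 SR transcripts, 19 averaged an FPKM of 1 or more, and the others were the fourth of SRSF1 and the minor one of TRA2B. None of the 19 was called, where 10.5% of 16691 transcripts were. The median absolute log2 fold change was 0.084 over the 19 and 0.247 over all transcripts. Scatter is smaller at high expression, and transcripts matched to the SR ones in FPKM were not set apart. The gap to all transcripts is therefore not read as a trait of the SR transcripts. Of the 19, 15 were lower and 4 higher after depletion, where 48.9% of all transcripts were lower. The 4 higher ones were the only transcript of SRSF4, the main one of SRSF5, the second of SRSF1 and the third of SRSF2. None of the 19 transcripts of SR genes with several transcripts moved its share by more than 10 percentage points, where 23.0% of 19667 such transcripts did. Those 19667 were not matched to the SR genes in FPKM or in the number of listed transcripts per gene. This contrast is therefore not read as a trait of the family either.

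The redistribution within a gene was summed up as its isoform shift, the percentage of the gene's FPKM that would have to be reassigned to turn one condition into the other. Over the 8 SR genes with several transcripts it had a median of 1.97% and ran from 0.517% (SRSF3) to 7.35% (SRSF2). It was 7.66% in the median of 5282 genes. The shift grows with the number of listed transcripts, so each gene was set beside genes with the same number. For SRSF1, with 4 transcripts, the shift was 1.04%, and 90.6% of the 657 genes with 4 transcripts had a larger one. Among the 6 SR genes with 2 transcripts, the shift was 0.517% for SRSF3, 1.03% for SRSF5, 1.69% for TRA2B, 2.24% for SRSF7 and 2.51% for SRSF6, all below the 4.37% median of 2510 genes. SRSF11 was above that median at 5.65%, and 44.1% of these genes had a larger shift. SRSF2 lay near the median of 7.64% for 978 genes with 3 transcripts. Restricted to genes averaging an FPKM of 10 or more, the medians were 3.40% with 2 transcripts, 6.14% with 3 and 8.37% with 4, and against these SRSF2 and SRSF11 were above and the other 6 below.

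**Figure D4:**
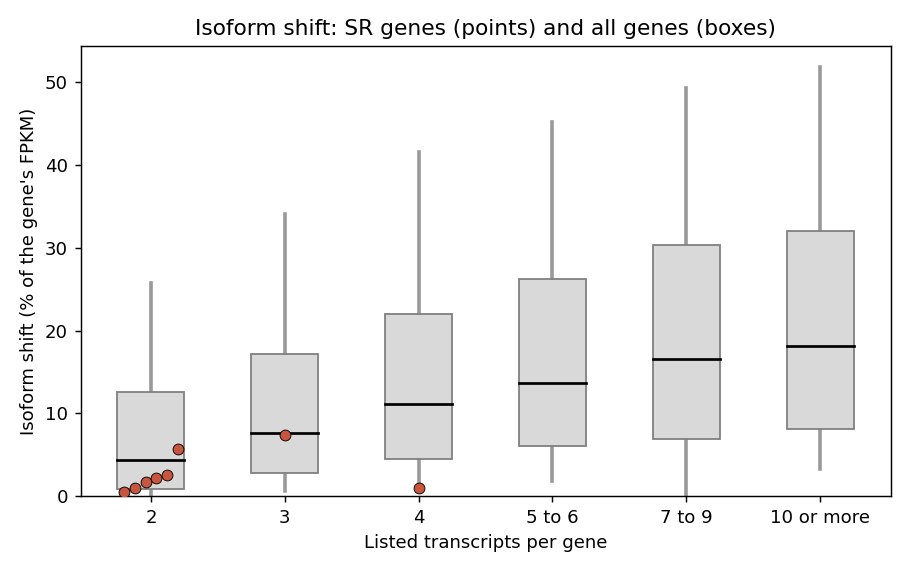
Isoform shift in percent of the gene's FPKM against the number of listed transcripts, for the 8 SR genes with several transcripts (red points) and all such genes (median line, box from the 25th to the 75th percentile, line from the 10th to the 90th). SRSF11 is the only SR gene above the median of its class.

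In 4 of the 6 SR genes with 2 transcripts, SRSF5, SRSF6, SRSF7 and TRA2B, a clearly less expressed transcript had a lower share after depletion, by 1.03 to 2.51 percentage points. In SRSF3 it had a higher share, by 0.517 points, and in SRSF11 the transcripts were about equal. How often this happened among all genes with 2 transcripts was not computed, so the count is not read as a trait of the SR genes. The table names transcripts only by assembly numbers and gives the whole locus of the gene for each of them. Which transcript holds a poison exon therefore cannot be read from it, and no minor transcript is called a poison form here. Across the table, genes with an annotated exon of this kind had a median log2 fold change of -0.023 (1755 genes). Those without one had -0.0004 (8273 genes). Among those with several transcripts, the median isoform shifts were 7.83% (971 genes) and 7.72% (3671 genes), in the same order.

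Other genes of SR biology were set beside the family by their gene sums. Of 29 other SR and SR-related genes, 28 passed the expression limit and SRSF12 did not, with an FPKM of 0.626 and 0.977. None of the 28 was called. They divided evenly into 14 higher and 14 lower, with a median log2 fold change of 0.0024 and a median absolute value of 0.116. The largest negative value was that of SRSF8, an intronless relative of SRSF2, at an FPKM of 11.0 and 8.10 (-0.44), and the largest positive one that of SRRM1, a splicing coactivator of exonic enhancers, at 11.0 and 13.0 (0.23). Their isoform shift had a median of 7.86% over 15 genes with several transcripts, but these have up to 14 listed transcripts, against at most 4 in the SR genes. Set beside genes with a similar number of transcripts, 8 of these 15 were above their class median, as was 1 of the 8 SR genes. Among genes with exactly 2 transcripts, the median shift was 7.77% over 8 other SR and SR-related genes (2.02% to 15.3%) and 1.97% over the 6 SR genes (0.517% to 5.65%), so the ranges overlapped.

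Kinases that phosphorylate the arginine-serine tail, and 2 transportins, TNPO1 and TNPO3, which carry proteins into the nucleus, made up a list of 10. None was called, 7 were lower and 3 higher, and the median log2 fold change was -0.10. CLK2, a nuclear kinase of SR proteins, had the largest negative value at an FPKM of 13.5 and 10.6 (-0.34), and its relative CLK4 the largest positive one at 20.9 and 23.1 (0.14). Of the 27 hnRNP and related genes, whose proteins often oppose SR proteins at exons, none was called, 20 were lower and 7 higher, with a median of -0.076. The extremes were TIA1, which promotes use of weak 5′ splice sites, at 17.3 and 12.8 (-0.43), and HNRNPH2, which binds runs of guanine, at 80.7 and 94.0 (0.22). The isoform shift was above the class median in 2 of 7 kinase and transportin genes and in 9 of 22 hnRNP genes with several transcripts. Among genes with 2 transcripts its median was 1.41% over 4 kinase and transportin genes, which is below the SR value, and 5.70% over 13 hnRNP genes. With 1 pooled value per condition, the differences between these lists and the SR genes were not tested.

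**Figure D5:**
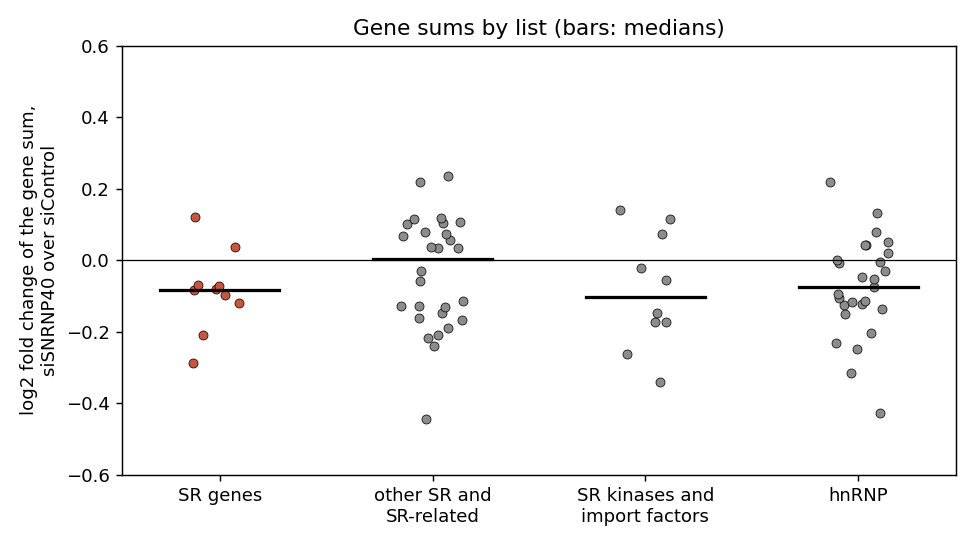
Log2 fold change of gene sums (siSNRNP40 over siControl) for the 10 SR genes (red) and 3 lists of related genes (grey), with 1 point per gene and a bar at the median. The medians are -0.082 for the SR genes, 0.0024 for other SR and SR-related genes, -0.10 for SR kinases and import factors and -0.076 for hnRNP genes.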

How the data were processed

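RNA from 4 libraries of LV-M100 cells, 2 per condition, was depleted of ribosomal RNA and sequenced. Reads were trimmed with cutadapt 1.2.1, mapped to hg19 with TopHat 2.0.8 and assembled and compared with Cufflinks, cuffmerge and cuffdiff 2.0.2. The deposited FPKM values are the authors' cuffdiff estimates per transcript, pooled by the authors over the libraries of a condition. Columns with the authors' fold changes, test statistics, p-values and q-values were not used. The members, lists and limits were chosen with earlier results of these data known.

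FPKM was summed per gene symbol, and shares, isoform shifts and log2 fold changes were computed with Python 3.11.15, numpy 2.4.6 and pandas 2.3.3, and the steps were tested on simulated data. The limits were a mean FPKM of 1, an absolute log2 fold change of 1 and 10 percentage points of share. All members and, from each list, the largest rise and fall were named. Exons, premature stops and protein lengths were read from GENCODE 44 on GRCh37, which held all 10 members. Depth is unknown, and the starts of loci were taken as counted from 0. Matching transcripts to annotated ones was not possible, so the share of transcripts without the full reading frame was not computed. FPKM of overlapping transcripts depends on how cuffdiff divides shared fragments. Pseudogene copies of SR genes were not examined.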

Additional observations from a re-analysis of the deposited data

How the results depend on the processing

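No paired analysis was possible because each condition is given as 1 pooled column, with no value for a numbered replicate. Leaving out each library, a replicate block and the matching of transcripts to annotated forms were not run for the same lack of values per library or per structure. Among SR transcripts, 1 was past a log2 fold change of 1 without an expression filter, and also 1 when the filter was lowered to 0.1 FPKM, against 0 otherwise. In both cases it was the minor TRA2B transcript, which the filter removes. At a limit of 5 percentage points, 4 transcripts were past the limit on shares, 2 of SRSF2 and both of SRSF11. How many of all transcripts pass at these other filters and limits was not computed. The counts are therefore not read as high or low. The count of gene sums past the limit (0), the medians of absolute log2 fold changes (0.078 to 0.094 for gene sums and 0.072 to 0.094 for transcripts), the median isoform shift (1.60% to 2.24%) and the number of genes with another leading transcript (1) stayed within the ranges counted as the same, which were 0.1 on the log2 scale, 5 percentage points and a factor of 1.5. The log2 and percentage ranges are larger than the medians they were applied to, so staying within them says little about stability. Median centring and upper-quartile scaling also shift all genes by little, so they say little about it either. Of 41 values of single SR gene sums under alternatives, 40 stayed within 0.1, and none turned its sign. The exception was SRSF11, at -0.046 for its most expressed transcript alone. Most SR gene sums had an absolute log2 fold change below 0.1 to begin with, so the count within 0.1 says little about stability. Addition of MIR636 to SRSF2 was chosen after the values were seen. Precision is limited by unknown depth and by the absence of replicate values.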
